A study of Sus scrofa with 12 samples.

Results

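Immediate early genes are genes whose transcripts appear within minutes of a stimulus, without new protein synthesis. Growth factors, cytokines and cellular stress reach them through the MAP kinase cascades, which act on factors such as SRF, ELK1 and CREB1 that already sit at their promoters. Their mRNAs are short-lived, so their level in a tissue is known to follow recent events, the handling of the tissue among them. In the liver they are known for their quick rise in regeneration and injury. A list of 10 such genes was described here, namely the AP-1 subunits FOS, JUN, JUNB and ATF3, the transcription factors EGR1, IER2 and MYC, the MAP kinase phosphatase DUSP1, the mRNA decay factor ZFP36 and the growth inhibitor BTG2. Of the 10 symbols, 8 had a row of that name among the 31694 rows of the mRNA tables. JUN was found as C-JUN, its synonym in the RefSeq annotation of Sscrofa11.1, and ATF3 as LOC100738612, which carries its RefSeq gene ID, and both matches were made after the symbols had proved absent.

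The mRNA libraries came from livers of 3 Jinhua (JH) and 3 Landrace (LD) pigs, 1 library per pig (JH1 to JH3 and LD1 to LD3). All pigs were uncastrated males of 70 days of age, and no group was treated. JH is a slow growing, fat Chinese breed and LD a fast growing, lean breed, and the study compared their livers at this age. Breed, and whatever differed between the breeds in housing or sampling, cannot be told apart in these groups, and the labels give no times of death, sampling or freezing. The labels also do not say whether pigs of a breed were related.

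Expression was deposited as RPKM, read counts scaled to gene length and to the library's total. Steps between low values gave back each library total behind the RPKM, and these totals ranged from 5744908 reads in JH1 to 7914515 reads in LD3. RN18S, a ribosomal RNA gene, ranged from 1570 RPKM in JH2 to 62257 RPKM in JH3, with 5991 RPKM in JH1 and 2108 RPKM in LD2. The hepatocyte markers were abundant in every library, with ALB between 27533 and 53893 RPKM. The breeds were compared with limma on log2(RPKM + 0.1) over the 12991 genes that reached 0.5 RPKM in 3 or more libraries. A fold change on this scale understates the change of low genes. Calls required a p below 0.05 after Benjamini-Hochberg adjustment and an absolute log2 fold change above 1. Exact permutation tests of single genes were two-sided, and 0.1 is the smallest p they can give here (3 against 3).

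None of the 9 immediate early genes with values above 0 was called between the breeds, while 310 of all 12991 tested genes were (2.39%), 133 of them higher in JH (1.02%) and 177 lower (1.36%). At an unadjusted p below 0.05 limma found 4 of the 9 genes, BTG2, JUN, ATF3 and EGR1, against 17.9% of all tested genes. Of these, only BTG2 and EGR1 were found under their own symbol. The other test run, limma's voom on recovered reads, called 0 of the 9 as well. Lower mean log2 levels in JH were measured for 5 genes and higher ones for 4. The median log2 fold change, given throughout as JH over LD, was -0.34 for the 9 genes and for the 7 of them found under their own symbol, against 0.04 for all tested genes. Without JH2 this median was 0.27 and without LD2 it was 0.03, so its sign rested on single pigs. The clearest pattern among these genes was between pigs of the same breed. LD2 held the highest LD value in 9 of the 9 genes, and JH1 held the highest JH value in 8 of them.

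**Figure D1:**
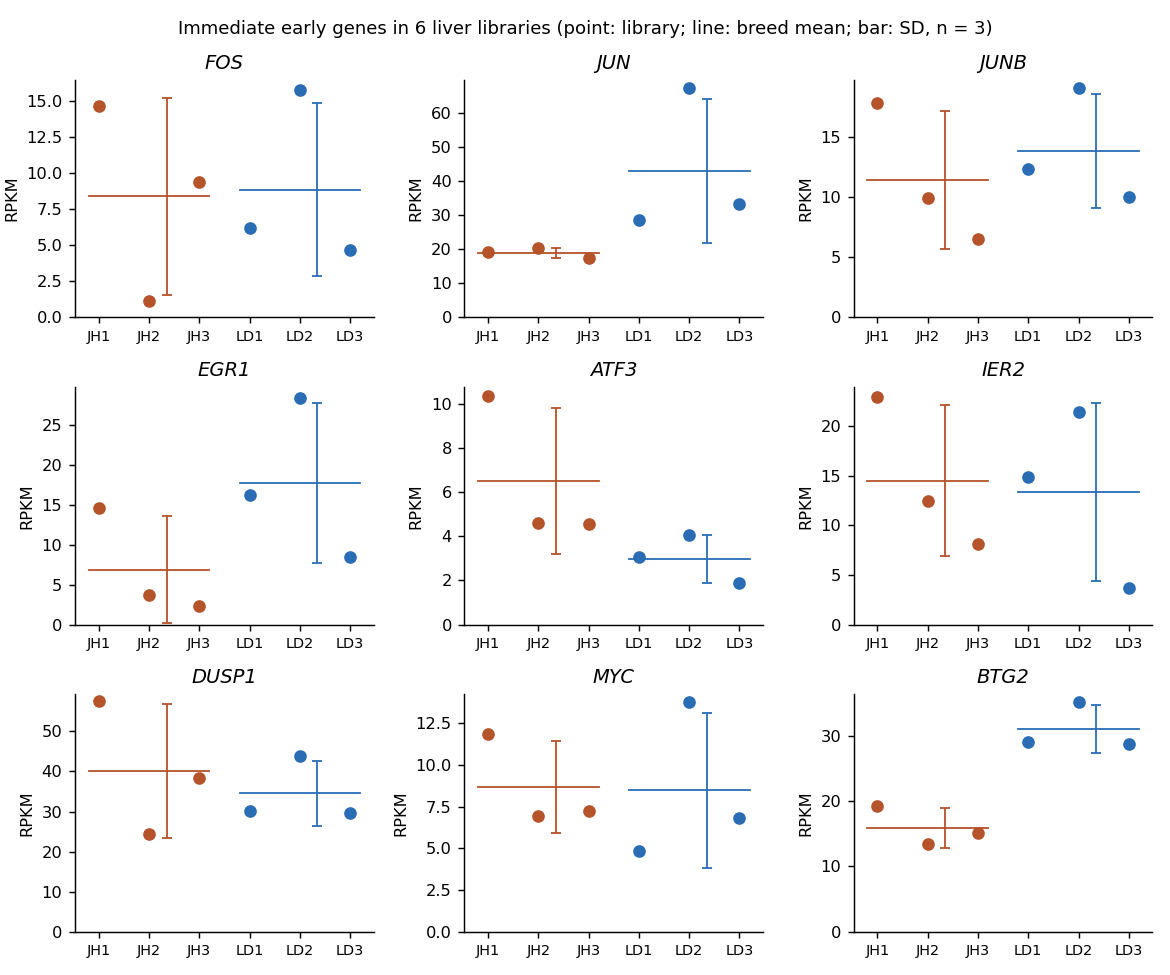
RPKM (vertical axis, from 0) of the 9 immediate early genes above 0 in the 3 JH and 3 LD libraries (horizontal axis). Points are libraries, horizontal lines are breed means and vertical bars are SD (n = 3). LD2 was the highest LD point in every panel and JH1 the highest JH point in every panel but that of JUN.

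By the mean RPKM over the 6 libraries, a level per length, DUSP1 stood first with 37.3 RPKM, followed by JUN with 31.0, BTG2 with 23.5, IER2 with 13.9, JUNB with 12.6 and EGR1 with 12.3. FOS with 8.61, MYC with 8.57 and ATF3 with 4.74 RPKM were the lowest of the genes above 0. The ranges over the 6 libraries of each gene and its neighbour in this order overlapped. Among all tested genes, the mean log2 level lay between percentile 47.0 for ATF3 and 87.6 for DUSP1. Between 10 and 745 recovered reads lay behind each gene in a library, with lengths behind the RPKM between 1104 bases for DUSP1 and 3165 bases for EGR1.

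FOS encodes the AP-1 subunit that pairs with JUN proteins. Its level was 14.6 RPKM in JH1, 1.13 in JH2 and 9.39 in JH3, and 6.16 in LD1, 15.7 in LD2 and 4.64 in LD3. The breeds overlapped, and the highest library, LD2, stood 14.0-fold above the lowest, JH2. The JH2 value came from 10 reads, with a 95% exact Poisson interval of 0.54 to 2.07 RPKM, which covers counting error only since reads are not independent molecules. This interval did not reach the 4.64 RPKM of LD3, which rests on 42 reads and has an interval of 3.35 to 6.28 RPKM. The means were 8.38 ± 6.80 RPKM (SD, n = 3) in JH and 8.85 ± 6.02 RPKM (SD, n = 3) in LD. This gave a log2 fold change of -0.49 (standard error, SE, 0.83, limma adjusted p = 0.802, exact permutation p = 0.8). It was 0.60 without JH2 and 0.03 without LD2.

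JUN, the DNA-binding partner of FOS in AP-1, was the AP-1 gene whose breeds stood apart with the higher values in LD. Its level was 19.1 RPKM in JH1, 20.4 in JH2 and 17.5 in JH3, and 28.5 in LD1, 67.3 in LD2 and 33.4 in LD3. The 3 JH pigs were close to each other, all LD pigs lay above them, and LD2 was far above the other LD pigs. The means were 19.0 ± 1.47 RPKM (SD, n = 3) in JH and 43.0 ± 21.1 RPKM (SD, n = 3) in LD. JUN had a log2 fold change of -1.07 (SE 0.33), and its limma adjusted p of 0.139 missed the threshold (exact permutation p = 0.1). Without LD2 the log2 fold change was -0.70.

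JUNB, a further AP-1 subunit that also restrains JUN, was measured at 17.8 RPKM in JH1, 9.96 in JH2 and 6.55 in JH3, and at 12.4 in LD1, 19.1 in LD2 and 10.04 in LD3. JH1 and LD2 were the highest pair, LD1, LD3, JH2 and JH3 followed in this order, and LD3 and JH2 were nearly equal. The difference was within the spread between pigs, with a log2 fold change of -0.34 (SE 0.39, limma adjusted p = 0.694, exact permutation p = 0.4), which came to -0.00 without JH3.

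ATF3, a stress-induced member of the ATF family that binds AP-1 and CRE sites, went the other way. It was at 10.3 RPKM in JH1, 4.61 in JH2 and 4.56 in JH3, and at 3.04 in LD1, 4.04 in LD2 and 1.86 in LD3. All 3 JH values lay above all LD values, but JH2, JH3 and LD2 were close to each other, and JH1 was 2.26-fold above the lowest JH pig. Its log2 fold change was 1.06 (SE 0.40), and the limma adjusted p of 0.207 missed the threshold (exact permutation p = 0.1). Without JH1 the log2 fold change was 0.67.

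EGR1, a zinc finger factor induced through SRF and ELK1, had the largest log2 fold change of the 9 genes. It was at 14.6 RPKM in JH1, 3.75 in JH2 and 2.33 in JH3, and at 16.2 in LD1, 28.4 in LD2 and 8.46 in LD3. JH1 lay inside the LD range, and only JH2 and JH3 were below all LD pigs. The means were 6.88 ± 6.70 RPKM (SD, n = 3) in JH and 17.7 ± 10.04 RPKM (SD, n = 3) in LD. At a log2 fold change of -1.62 (SE 0.65) EGR1 was not called (limma adjusted p = 0.234, exact permutation p = 0.2). Leaving out JH1 moved it to -2.38 with an adjusted p of 0.0588 in limma, and leaving out JH3 moved it to -1.08.

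IER2, a nuclear protein of the early response, had the same high pair. It was at 23.0 RPKM in JH1, 12.5 in JH2 and 8.08 in JH3, and at 14.9 in LD1, 21.4 in LD2 and 3.68 in LD3. Within LD, LD2 stood 5.82-fold above LD3. Between breeds IER2 had a log2 fold change of 0.32 (SE 0.62, limma adjusted p = 0.826), and it turned to -0.43 without LD3 and to -0.07 without JH1.

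MYC, a growth-promoting transcription factor that binds E-boxes with MAX, was at 11.9 RPKM in JH1, 6.91 in JH2 and 7.24 in JH3, and at 4.86 in LD1, 13.7 in LD2 and 6.82 in LD3. The LD pigs spanned the whole JH range. Its log2 fold change was 0.13 (SE 0.39, limma adjusted p = 0.902), and it turned to -0.20 without LD1 and to -0.12 without JH1.

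DUSP1 removes phosphate from MAP kinases and so ends the signal that induces the other genes. It was at 57.5 RPKM in JH1, 24.3 in JH2 and 38.3 in JH3, and at 30.1 in LD1, 43.9 in LD2 and 29.5 in LD3. JH held both the highest and the lowest value. DUSP1 had a log2 fold change of 0.15 (SE 0.34, limma adjusted p = 0.854), which turned to -0.15 without JH1 and to -0.000310 under quantile normalization.

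BTG2 slows the cell cycle and recruits the CCR4-NOT deadenylase to mRNAs, and it had the smallest spread of the 9 genes. It was at 19.2 RPKM in JH1, 13.4 in JH2 and 15.1 in JH3, and at 29.1 in LD1, 35.3 in LD2 and 28.7 in LD3. The breeds stood well apart, with 15.9 ± 3.01 RPKM (SD, n = 3) in JH and 31.0 ± 3.66 RPKM (SD, n = 3) in LD. The resulting log2 fold change was -0.97 (SE 0.24, limma adjusted p = 0.0818, exact permutation p = 0.1), just short of both limits. Under quantile normalization BTG2 was called, with a log2 fold change of -1.10 and a limma adjusted p of 0.0332. With each library left out in turn its log2 fold change stayed between -1.11 and -0.85 and it was not called.

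ZFP36, which binds AU-rich elements and brings mRNAs to decay, was listed at 0 in all 6 libraries. APOB, MAPK3 and CEBPB, which liver cells use, were also listed at 0 in every library, so the ZFP36 value says only that the gene is listed at 0.

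**Figure D2:**
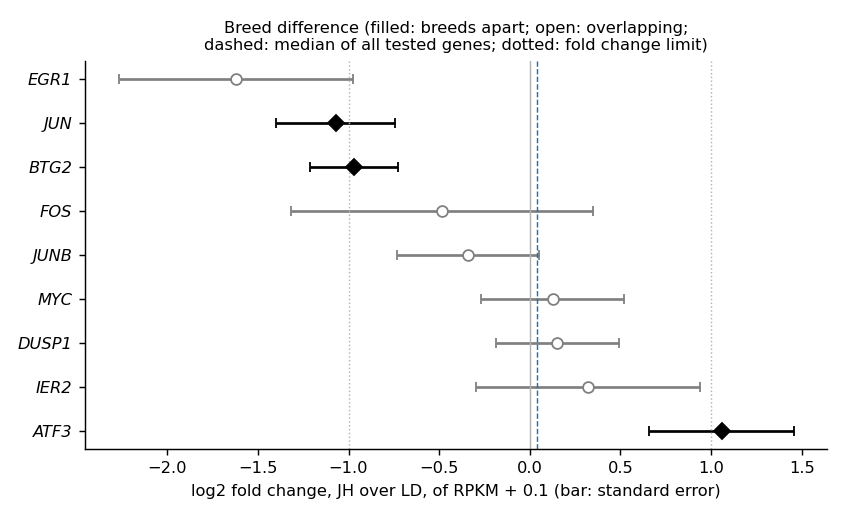
Log2 fold change of JH over LD with its standard error (SE, horizontal axis) for the 9 genes (vertical axis). Filled diamonds mark genes whose breeds did not overlap (JUN, BTG2 and ATF3), open circles mark overlapping genes, the dashed line is the median of all tested genes (0.04) and the dotted lines are the fold change limit.

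The values of the breeds did not overlap in 3 of the 9 genes, JUN, BTG2 and ATF3, against 23.4% of all tested genes. Among the 7 genes found under their own symbol BTG2 alone stood apart. JUN and BTG2 were lower in every JH pig and ATF3 was higher in every JH pig. With JH1 and LD2 left out together, an alternative added after their values were seen, the log2 fold change was -1.02 for BTG2, -0.70 for JUN, 0.92 for ATF3 and -1.95 for EGR1, and none of the 9 genes was called. In that fit, with 2 pigs against 2, 52 of all tested genes were called.

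The same 2 libraries stood highest in most of these genes. As a summary, each gene was scaled to a mean of 0 and an SD of 1 over the 6 libraries, and the scaled values were averaged over the 9 genes. This mean was 1.02 in LD2, 0.72 in JH1, -0.07 in LD1, -0.43 in LD3, -0.53 in JH3 and -0.70 in JH2. The 2 highest libraries thus came from different breeds, while the 2 lowest were both JH. Single genes followed this order to a varied degree. LD2 was the highest of all 6 libraries in 6 genes and JH1 in the other 3, ATF3, IER2 and DUSP1. The lowest library was JH2 in 3 genes, JH3 in 3, LD3 in 2 and LD1 in 1. The order LD2, JH1, LD1, LD3, JH3, JH2 was found again with both other pseudocounts, with quantile normalization and with median scaling.

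JH1 was the highest JH library in 8 of the 9 genes, against 42.7% of all tested genes, and LD2 the highest LD library in 9 of 9, against 46.3%. Both held in 8 of the 9 genes, against 22.1% of all tested genes. JH1 and LD2 were picked from the values of these same 9 genes, so a high share was built into the choice. These shares are therefore a description only, and the 9 genes moved together, so they are not separate observations. Deviations from the breed means on the log2 scale show the size of the differences between libraries of a breed. The median deviation of the 9 genes was 0.75 in JH1 and 0.75 in LD2, while that of all tested genes was 0.12 in JH1 and 0.12 in LD2. In JH3 and LD3 the 9 genes lay at -0.21 and -0.41, and all tested genes lay low in these libraries as well, at -0.20 and -0.17. In JH2 the 9 genes were at -0.28 although all tested genes were at 0.11. The largest deviations were those of FOS in JH2, -2.18, EGR1 in JH1, 1.51, IER2 in LD3, -1.50, and FOS in JH1, 1.41. JUN was the exception in JH1, with a deviation of 0.01. JH1 had the lowest total of the 6 libraries and LD2 the highest but that of LD3, and RN18S was lower in JH2 and LD2 than in the other libraries. The part of depth and ribosomal RNA in this order was not tested, and no label gives the handling of single pigs. Under quantile normalization JH1 was the highest JH library in 7 of the 9 genes and LD2 the highest LD library in 8.

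**Figure D3:**
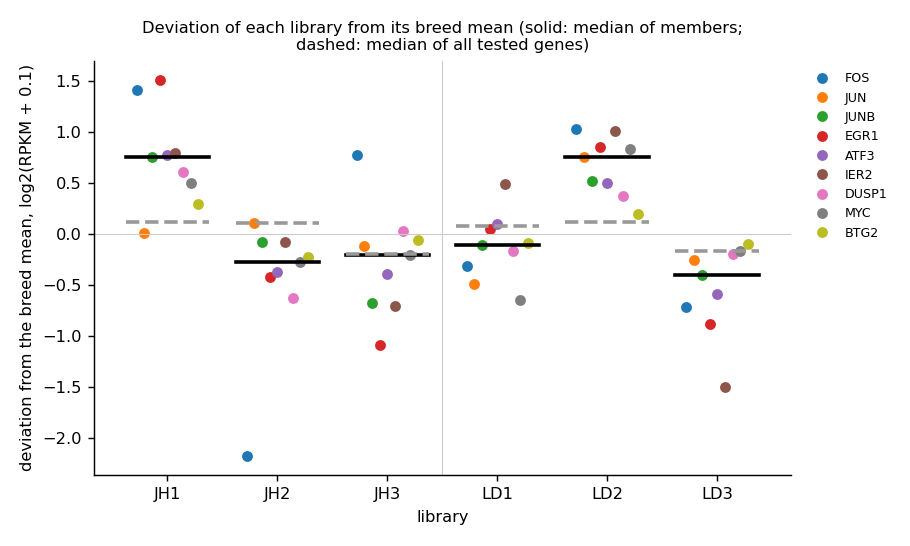
Deviation of each library from the mean of its breed on the log2(RPKM + 0.1) scale (vertical axis) for the 9 genes in the 6 libraries (horizontal axis). Points are genes, solid lines are the median of the 9 genes and dashed lines the median of all tested genes, and the solid lines of JH1 and LD2 stand at 0.75 against 0.12 for the dashed lines.

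The spread between pigs of the same breed was large for most of these genes. The median within-breed SD was 0.61 on the log2 scale for the 9 genes and 0.39 for all tested genes, and 8 of the 9 genes lay above the latter. FOS had an SD of 1.50, at percentile 98.0 of all tested genes, EGR1 one of 1.13, at percentile 95.5, and IER2 one of 1.08, at percentile 94.9. MYC, ATF3 and JUNB followed with SD of 0.61, close to percentile 79.0, then DUSP1 with 0.49 and JUN with 0.47. BTG2 was the exception, with an SD of 0.22, at percentile 14.1.

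**Figure D4:**
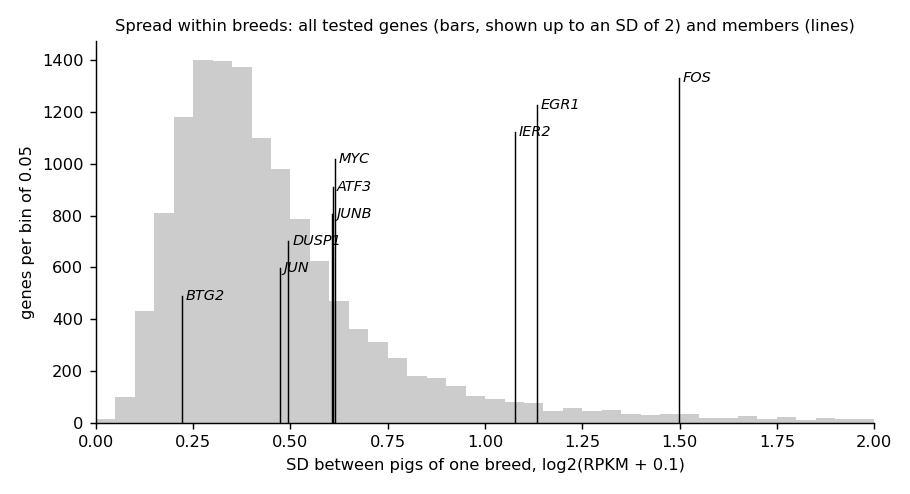
Distribution of the SD between pigs of one breed on the log2(RPKM + 0.1) scale (horizontal axis) over all tested genes (grey bars, number of genes per bin of 0.05, shown up to an SD of 2) with lines for the 9 genes. FOS (1.50), EGR1 (1.13) and IER2 (1.08) lie in the right tail and BTG2 (0.22) lies left of the median of 0.39.

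As a description over 6 libraries that share depth and composition, the deviations from the breed means were positively related in all 36 pairs of the 9 genes. Pearson's r of these deviations had a mean of 0.69 over the 36 pairs, against a mean of 0.13 over all pairs of tested genes, and ranged from 0.28 for FOS with JUN to 0.98 for JUNB with EGR1. DUSP1 with BTG2 was at 0.98, EGR1 with ATF3 at 0.97 and FOS with DUSP1 at 0.95. In FOS and DUSP1, as in MYC and BTG2, JH3 stood above JH2, while in JUNB, EGR1 and IER2 JH2 stood above JH3. Without removal of the breed means r was above 0 in 34 of the 36 pairs. The 2 pairs below 0 were ATF3 with BTG2 at -0.47 and ATF3 with JUN at -0.42, which join the gene higher in JH with the genes higher in LD.

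The genes with the profile most like the mean of the 9 genes, by Pearson's r over the 6 libraries, were MYO18A (0.99), KLC1 (0.99), GPAA1 (0.99), LOC102158452 (0.99) and LOC102159254 (0.98). MYO18A, for example, was at 17.6 RPKM in JH1 and 20.6 in LD2 and between 11.1 and 13.1 RPKM in the other libraries. None of these 5 genes was called between the breeds. Among all tested genes outside the 9, 123 had an r above 0.9.

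Related genes were read from the same fit in lists by role. Among the other AP-1 subunits 5 of 6 genes with a row could be tested and 0 were called, with a median log2 fold change of -0.15. BATF, a lymphoid AP-1 subunit, had the lowest p, with a log2 fold change of -1.66 (SE 0.83, limma adjusted p = 0.337), which was -2.59 without JH2 and -0.61 without JH3. BATF2 followed with 0.71 (SE 0.54, limma adjusted p = 0.540). FOSL1, one of the relatives named for their level, was at 0.08 RPKM in LD1 and listed at 0 elsewhere. Of the EGR and NR4A relatives only NAB1, a corepressor of EGR1, and the nuclear receptor NR4A2 were high enough to test, and neither was called, with log2 fold changes of 0.38 and 0.21. EGR2 and EGR3 stayed below 0.35 RPKM in every library, below the lowest EGR1 value of 2.33 RPKM.

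The largest list held 31 tested genes of the wider early response, of which 0 were called higher and 1 lower in JH, with a median log2 fold change of -0.03. KLF6, an injury-responsive zinc finger factor, was the gene called. It was at 3.39 RPKM in JH1, 3.73 in JH2 and 3.18 in JH3, and at 7.30 in LD1, 9.27 in LD2 and 6.91 in LD3. The breeds stood apart, with a log2 fold change of -1.16 (SE 0.24, limma adjusted p = 0.0446). The call was close to the threshold. It was lost in every fit that left out 1 library, where the limma adjusted p was between 0.0678 and 0.160, and with the replicate number as a block, where it was 0.0505. It was also lost with a pseudocount of 0.01, with an adjusted p of 0.0528 in limma, without the filter on low values, with 0.0699, and with a pseudocount of 1, where the log2 fold change was -0.99. In the fits that left out 1 library the log2 fold change stayed between -1.24 and -1.03. KLF6 was called under quantile normalization (-1.18, limma adjusted p = 0.0219), median scaling (-1.17, limma adjusted p = 0.0251) and voom (-1.18, limma adjusted p = 0.0292). ID1, an inhibitor of basic helix-loop-helix factors that was named after its values were seen, had a larger log2 fold change of 2.34 (SE 0.67) and a limma adjusted p of 0.114. It was at 268 RPKM in JH1, 97.9 in JH2 and 86.1 in JH3, and at 45.6 in LD1, 44.8 in LD2 and 8.36 in LD3, and without LD3 its log2 fold change was 1.54. The order of the libraries recurred in part of this list. JH1 was the highest JH library in 21 of the 31 genes and LD2 the highest LD library in 18, and both held in 12 genes (38.7%), against 22.1% of all tested genes. The small GTPase gene RHOB was such a gene, named after its values were seen, with 100 RPKM in JH1 and 123 RPKM in LD2 and between 41.9 and 60.8 RPKM in the other libraries.

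None of the tested genes was called in the lists of MAP kinase phosphatases, of mRNA decay and BTG relatives and of the MYC network. Of the MAP kinase phosphatases besides DUSP1, 5 could be tested and 0 were called, with a median log2 fold change of 0.53. DUSP10, which acts on p38 and JNK, was at 0.83 RPKM in JH1, 2.18 in JH2 and 1.23 in JH3, and between 3.01 and 3.35 RPKM in the LD pigs, a log2 fold change of -1.23 (SE 0.36, limma adjusted p = 0.122). DUSP4, a phosphatase of ERK, had one of 0.67 (SE 0.32, limma adjusted p = 0.320). Of 12 tested mRNA decay genes and BTG relatives 0 were called, with a median log2 fold change of -0.21 and 8 values below 0. BTG3, a relative of BTG2, had a log2 fold change of -0.81 (SE 0.31, limma adjusted p = 0.212), and CNOT6L, a CCR4-NOT deadenylase, one of -0.60 (SE 0.25, limma adjusted p = 0.258). ZFP36L1 and ZFP36L2, the relatives of ZFP36, were at 43.5 to 82.5 RPKM and at 15.7 to 34.8 RPKM. Of the 8 tested genes of the MYC network 0 were called, with a median of -0.12. MXD4 and MLX, which pair with MAX or its relatives, came nearest, with log2 fold changes of -0.44 and 0.21. The mean log2 level of this network was 2.64 in JH1, 2.79 in LD2 and 2.37 to 2.47 in the other libraries, but JH1 was the highest JH library and LD2 the highest LD library together in only 2 of its 8 genes (25.0%), against 22.1% of all tested genes. Both held in 0 of the 12 decay and BTG genes and in 0 of the 2 EGR and NR4A relatives. They held in 2 of the 5 phosphatases (40.0%) and in 2 of the 5 tested AP-1 relatives (40.0%).

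Of the 17 tested kinases and factors upstream of these genes 0 were called, with a median log2 fold change of -0.03. ATF1, matched as LOC102158891, had the lowest p, with a log2 fold change of 1.00 (SE 0.33, limma adjusted p = 0.162). CREB1, which is closely related to it and binds the same CRE sites, had one of -0.82 (SE 0.30, limma adjusted p = 0.195). SRF, which acts on the promoters of FOS and EGR1, was named after its values were seen. It was at 5.84 RPKM in JH1 and 6.45 RPKM in LD2 and between 2.79 and 4.23 RPKM in the other libraries. JH1 was the highest JH library and LD2 the highest LD library together in only 3 of the 17 genes (17.6%), against 22.1% of all tested genes. The stress lists were also without calls. Of 11 tested heat shock genes 9 had a log2 fold change above 0, with a median of 0.36, against 0.04 for all tested genes. HSPH1 was at 0.87 (SE 0.40, limma adjusted p = 0.303), with 0.41 without LD1 and 1.30 without LD3, and HSP90AA1 at 0.53 (SE 0.29, limma adjusted p = 0.374). Of 11 tested hypoxia genes 10 had a log2 fold change above 0, with a median of 0.22. VEGFA was at 0.59 (SE 0.28, limma adjusted p = 0.318) and EGLN3 at 0.52 (SE 0.29, limma adjusted p = 0.388). HSPA1L, HSP70.2, HSP70 and HMOX1 were listed at 0 in every library, so these lists lack them. JH1 was the highest JH library in 8 of the 11 hypoxia genes, against 42.7% of all tested genes. LD2 was the highest LD library in 3 of them, against 46.3%. Both held in 3 hypoxia genes (27.3%) and in 2 of the 11 heat shock genes (18.2%), against 22.1% of all tested genes.

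**Figure D5:**
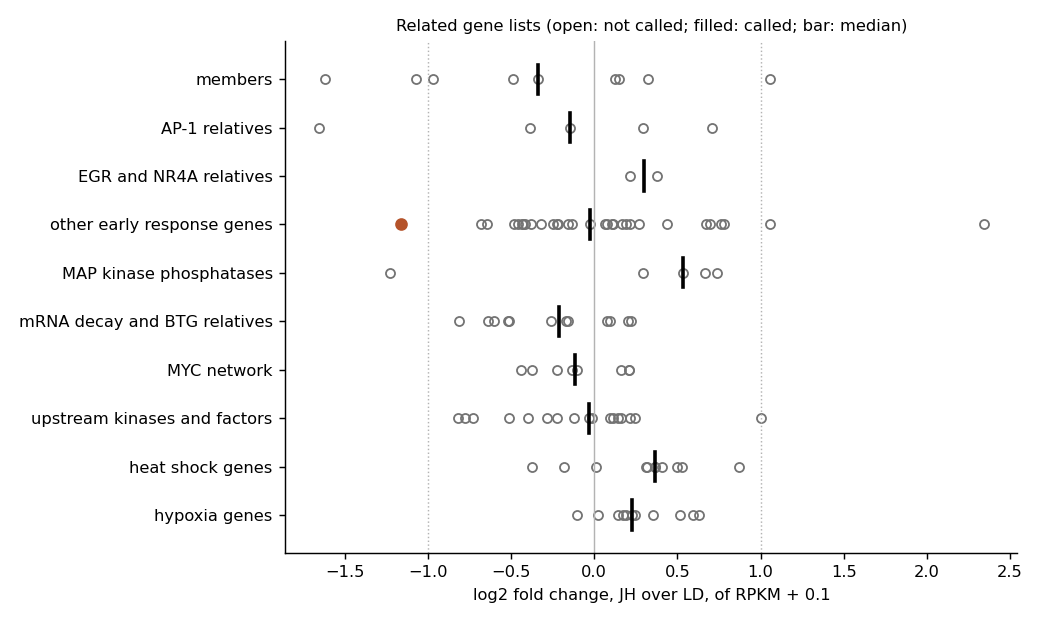
Log2 fold change of JH over LD (horizontal axis) for each tested gene of the 9 immediate early genes and of 9 related lists (vertical axis). Open circles were not called, the filled circle is KLF6 (-1.16), black bars are medians, and dotted lines mark the fold change limit.

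In bulk tissue fewer cells of a type and less RNA per cell cannot be told apart, and markers of other cell types moved with the breeds. Of 9 tested hepatocyte markers 0 were called, with summed levels of 43563 to 48612 RPKM in JH and 63737 to 80585 RPKM in LD. Most of this sum was ALB, at 27533 to 53893 RPKM, so it says little about the number of hepatocytes. A log2 fold change below 0 was found for 7 of the 9 markers, while HNF4A was at 0.22 and ASGR1 at 0.08. Of 11 tested stellate cell markers 4 were called lower in JH, against 1.36% of all tested genes. These were the collagen genes COL1A1, COL1A2 and COL3A1, and LRAT. The summed level of the 11 markers was 92.9 to 110 RPKM in the JH pigs and 208 to 411 RPKM in the LD pigs. COL3A1 was the largest part of it, at 30.6 to 46.8 RPKM in JH and 99.6 to 165 RPKM in LD. All 11 markers had a log2 fold change below 0, but DES, ACTA2, RGS5, RELN and DCN overlapped between the breeds. Of 5 tested bile duct markers 1 was called lower in JH, with summed levels of 9.64 to 20.8 RPKM in JH and 23.8 to 55.6 RPKM in LD, and KRT7 was listed at 0. Of 2 tested erythroid markers 1, HBB, was called lower in JH, with summed levels of 90.4 to 123 RPKM in JH and 214 to 394 RPKM in LD. JUN, BTG2 and KLF6 were lower in JH in the same pigs, and the part of these cells in that was not tested. The breeds overlapped in the summed levels of macrophage markers, 893 to 2089 RPKM in JH and 1323 to 1546 RPKM in LD, of lymphocyte markers, 32.0 to 101 RPKM and 40.3 to 55.2 RPKM, of neutrophil markers, 7.70 to 15.5 RPKM and 7.31 to 44.5 RPKM, and of endothelial markers, 183 to 295 RPKM and 232 to 288 RPKM. Most of the endothelial sum was CLEC4G, at 109 to 213 RPKM, and 8 of the 9 tested endothelial markers had a log2 fold change below 0. PECAM1 and KDR, named after their values were seen, had the lowest p of this list and stood apart between the breeds. PECAM1 was at 15.2 to 16.1 RPKM in JH and 25.7 to 30.1 RPKM in LD (limma adjusted p = 0.0988). KDR was at 8.56 to 11.1 RPKM in JH and 18.0 to 19.4 RPKM in LD (limma adjusted p = 0.0811). VWF also stood apart, while STAB1, STAB2, LYVE1, CLEC4G, FLT1 and TEK overlapped, and TEK had a log2 fold change of 0.11. The part of endothelial cells in the lower JUN and BTG2 values was not tested. CD163 and CSF3R were listed at 0. The mean log2 level of the lymphocyte markers was 1.31 in JH1, 2.71 in JH2 and 1.25 in JH3, and 1.83 in LD1, 1.49 in LD2 and 1.86 in LD3. That of the endothelial markers was 3.55 in JH1, 2.95 in JH2 and 3.25 in JH3, and 3.56 in LD1, 3.74 in LD2 and 3.59 in LD3. In neither list were JH1 and LD2 the 2 highest libraries, as they were in the mean of the 9 genes. Within the breeds, however, JH1 was the highest JH library and LD2 the highest LD library in the endothelial mean. Its r with the scaled mean of the 9 genes was 0.74. Both held in 2 of its 9 tested genes (22.2%), against 22.1% of all tested genes. The part of these cells in the order of the libraries was not tested.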

How the data were processed

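Per the paper's methods, the authors filtered 50 bp single reads, aligned them to the pig assembly Sscrofa10.2 with TopHat2 2.0.13, used gfold for gene read counts, and they deposited 1 file of RPKM values per pig. The annotation used for counting is not given in the sources used here, and RPKM values move with the share of ribosomal RNA. Groups and replicate numbers were taken from the sample titles. The genes and lists were chosen with earlier results of these data known. No sequences or coordinates are given, since no genome of the files' build was used here. The deposited small RNA tables were not used. An identifier that occurs in 2 rows was left out.

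All genes were fitted together, without covariates, by limma's lmFit and trended eBayes (version 3.58.1 under R 4.3.3). The script was tested on simulated data. Totals and reads were recovered by searching a length per gene that made all values whole within 0.04 reads plus rounding error, which gave reads for 15054 of 19612 genes above 0 (76.8%). Voom used these reads. The rule for named genes took the list itself and the genes called in each related list, or else the 2 with the lowest p. It also took the 5 genes with the highest r with the mean scaled profile. Further genes were named outside this rule, for their level, as neighbours or markers, or after their values were seen. ID1, RHOB, SRF, PECAM1 and KDR were of the last kind. Other steps used scipy 1.17.1, pandas 2.3.3, matplotlib 3.10.9 and numpy 2.4.6 under Python 3.11.15. Alternatives were pseudocounts of 0.01 and 1, no filter, quantile normalization, median scaling, the replicate block, voom, no fold change limit and each library left out. P-values rest on 3 pigs in each breed, whose relation is unknown, so they say little about the breeds at large. The SE and p of limma also borrow from the spread of all tested genes, so they do not rest on a gene's own spread alone.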

Additional observations from a re-analysis of the deposited data

How the results depend on the processing

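The count of 0 calls among the 9 immediate early genes was found under every alternative run other than quantile normalization, where it was 1, BTG2, with a log2 fold change of -1.10. Under the same normalization the log2 fold change of DUSP1 was at -0.000310. The number of called genes among all genes moved more, from 310 to 199 with a pseudocount of 0.01, 200 with no filter on low values and 52 with JH1 and LD2 left out together. Leaving out 1 library gave 79 (without LD1) to 406 (without JH3) called genes, with 114 without LD2, 149 without LD3, 150 without JH2 and 164 without JH1. The median log2 fold change of the 9 genes ranged from -0.72 to 0.27 in those fits. The ranges of single genes in the same fits were -1.19 to 0.60 for FOS, -0.15 to 0.47 for DUSP1, -0.43 to 0.83 for IER2, -0.20 to 0.54 for MYC, -1.32 to -0.70 for JUN, -0.72 to -0.00 for JUNB, -2.38 to -1.08 for EGR1, 0.67 to 1.30 for ATF3, -0.00106 to 1.08 for BATF2, -0.32 to 0.57 for NR4A2 and -0.41 to 0.0538 for MYO18A. FOS turned positive without JH2 (0.60) and without LD2 (0.03), MYC negative without JH1 (-0.12) and without LD1 (-0.20), IER2 negative without JH1 (-0.07) and without LD3 (-0.43), and DUSP1 negative without JH1 (-0.15). With the replicate block 0 of the 9 genes and 253 of all genes were called, 200 of them among the 310. At an unadjusted p below 0.05 limma found 2957 of all genes with the block, against 2320 in the main fit. Same-numbered JH and LD libraries deviated from their breed means with r of -0.02, 0.05 and 0.18 over all tested genes. Whether the numbers pair the pigs cannot be read from these r values, since each breed mean rests on few pigs. The labels do not state a pairing. The cause of these shifts was not tested. Depth limits FOS in JH2 most, at 10 reads.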

Other observations

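Neighbouring genes in the RefSeq order of Sscrofa11.1 were read beside the 10 listed genes, as values chosen after the fit was known. Of 20 neighbours 14 could be tested and 1 was called, against 2.39% of all tested genes. It was FMOD, a small matrix proteoglycan next to BTG2. FMOD was at 2.16 RPKM in JH1, 2.22 in JH2 and 2.35 in JH3, and at 6.96 in LD1, 7.71 in LD2 and 6.16 in LD3, which is a log2 fold change of -1.58 (SE 0.24, limma adjusted p = 0.0131). Its r with BTG2 over the 6 libraries was 0.94, with the breed difference of both genes left in. Within LD both genes were highest in LD2, but within JH FMOD was lowest in JH1, where BTG2 was highest. The call of FMOD was lost without LD1, with a limma adjusted p of 0.0789, and without LD2, with 0.0604. JDP2, the AP-1 gene next to FOS, had a log2 fold change of 0.29 (SE 0.60, limma adjusted p = 0.835) and an r of 0.51 with FOS. IER2 and JUNB lie on the same chromosome with 18 protein-coding genes between them.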
